A study of Mus musculus with 6 samples.

Results

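Small RNA host genes are long non-coding genes whose transcripts carry small nucleolar RNAs (snoRNAs) or microRNAs. The genes described here were every gene of the count table with a symbol of Snhg and a number (small nucleolar RNA host gene), a symbol that begins with Mir and ends in hg (microRNA host gene), or Gas5, given at least 10 counts summed over all 6 libraries. That rule kept 23 of 22584 genes, of which 14 were snoRNA hosts and 9 were microRNA hosts. Snhg9 had a fitting symbol but only 1 count in all and was left out. The RNA came from the brain of wild-type (WT) mice and was extracted in either of 2 ways. The control group had 3 libraries of RNA extracted with TRIzol, a phenol and guanidine reagent, and the co-extraction group had 3 libraries of RNA isolated with the AllPrep DNA/RNA/Protein Mini Kit, which binds nucleic acids to columns and yields DNA, RNA and protein from a single lysate. All 6 libraries were made from total RNA by T7 in vitro transcription amplification and sequenced as 150-base paired reads. The labels give no age, sex or brain region, and do not say whether the libraries of a group came from separate mice, so the p-values reflect only how much these libraries vary, and that variation may be technical.

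A snoRNA host is transcribed as a long precursor, its introns are spliced out, and the snoRNAs are trimmed from those introns while the joined exons form a transcript of their own. Box C/D snoRNAs guide 2′-O-methylation and box H/ACA snoRNAs guide pseudouridylation, mostly of ribosomal RNA, and the spliced host transcript is in many cases degraded by nonsense-mediated decay during translation. A microRNA host is cut in the nucleus by Drosha and Dgcr8 to release a hairpin, which Dicer1 trims to the mature microRNA that Argonaute proteins carry. In brain, miR-124 and miR-9 are the classic microRNAs of neurons and neural progenitors. The values of the hosts count reads over the host genes and do not measure the mature small RNAs, so what follows mainly describes the hosts. A few small RNAs had rows of their own, which are given below.

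The snoRNAs of Snhg11 and Snhg17 are shown because the genes are neighbours on chromosome 2, on opposite strands, carry related H/ACA snoRNAs, and differed widely in level. The sequences are those of the GENCODE vM21 transcripts on GRCm38, 5′ to 3′, and capitals mark the ACA box near the 3′ end of an H/ACA snoRNA.
Snhg11, Gm25187: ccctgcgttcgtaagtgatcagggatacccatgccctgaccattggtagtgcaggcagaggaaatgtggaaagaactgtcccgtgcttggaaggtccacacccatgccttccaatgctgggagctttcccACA
Snhg11, Gm25129: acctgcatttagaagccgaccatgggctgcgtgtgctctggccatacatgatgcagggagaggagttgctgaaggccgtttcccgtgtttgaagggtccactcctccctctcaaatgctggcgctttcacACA
Snhg17, Gm24411: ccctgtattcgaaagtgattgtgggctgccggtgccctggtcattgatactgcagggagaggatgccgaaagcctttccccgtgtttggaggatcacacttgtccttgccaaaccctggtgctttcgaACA
Snhg17, Gm26003: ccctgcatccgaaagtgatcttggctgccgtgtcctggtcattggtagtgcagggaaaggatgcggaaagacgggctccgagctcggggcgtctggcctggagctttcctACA
Snhg17, Gm23925: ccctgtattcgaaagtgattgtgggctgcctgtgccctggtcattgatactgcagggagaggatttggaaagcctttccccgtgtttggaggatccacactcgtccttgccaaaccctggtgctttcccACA
Snhg8, Snora24: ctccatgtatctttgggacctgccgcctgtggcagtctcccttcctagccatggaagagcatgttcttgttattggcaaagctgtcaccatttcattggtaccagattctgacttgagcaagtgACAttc
Across the neighbouring genes, the snoRNAs of Snhg11 and those of Snhg17 were 60.2% to 74.4% identical, counted as the bases left unedited over the longer sequence. Gm24411 and Gm23925, both in Snhg17, were 93.9% identical. Snora24 of Snhg8, an unrelated H/ACA snoRNA, was 46.6% to 50.8% identical to those 5.

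Gas5, the snoRNA host with the most snoRNAs here (9 annotated inside it), carries box C/D snoRNAs. A pair of them is printed with the C box TGATGA and the D box CTGA in capitals, together with the C/D snoRNA of Snhg5.
Gas5, Snord47: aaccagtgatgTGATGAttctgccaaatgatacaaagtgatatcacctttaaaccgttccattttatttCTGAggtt
Gas5, Snord80: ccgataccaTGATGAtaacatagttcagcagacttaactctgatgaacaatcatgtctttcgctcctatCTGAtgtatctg
Snhg5, Snord50a: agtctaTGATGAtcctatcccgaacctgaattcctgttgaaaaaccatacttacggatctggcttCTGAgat
The snoRNAs of Snhg5, Snord50a and Snord50b, were 98.6% identical and differed by 1 base.

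The mature microRNAs of the hosts measured in brain are given with the seed, bases 2 to 8, in capitals. They are RefSeq sequences on GRCm38.p6, and they show which hosts carry the same product.
Mir9-2hg and Mir9-3hg, miR-9-5p: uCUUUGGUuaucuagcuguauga
Mir22hg, miR-22-3p: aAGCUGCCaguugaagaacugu
Mir99ahg, miR-99a-5p: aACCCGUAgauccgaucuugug
Mir100hg, miR-100-5p: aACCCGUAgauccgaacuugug
Mir99ahg, let-7c-5p: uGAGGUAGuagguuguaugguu
Mir99ahg and Mir100hg, miR-125b-5p: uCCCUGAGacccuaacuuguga
The products miR-99a-5p of Mir99ahg and miR-100-5p of Mir100hg share the seed ACCCGUA. Each of these hosts carries 3 microRNAs of the same 3 families (miR-99 and miR-100, let-7, miR-125) in introns. Mir124a-1hg and Mir124-2hg carry the hairpins Mir124a-1 and Mir124a-2 of miR-124.

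The count table held 36395330 to 50937858 counts per library. Of 16325 genes with enough counts to test, 621 had an adjusted p below 0.05 in edgeR's quasi-likelihood test with Benjamini-Hochberg adjustment over all of them, 412 higher and 209 lower in AllPrep. The higher calls were 66.3% of that total, 52.9% when libraries were scaled by their size alone and 37.4% when trends with transcript length and GC content were removed. Between 64.2% and 71.0% of gene counts from 1 to 20 were even numbers. Whether both reads of a pair were counted is not given in the sources used here, so a count may exceed its number of fragments. The brain label was matched by its markers, with levels in counts-per-million units (CPM, scaled here by TMM). Summed over 9 neuron genes, the level was 7310 to 8368 CPM in TRIzol and 6873 to 7619 CPM in AllPrep. None of the 9 passed by edgeR, and DESeq2 called 2 lower and 1 higher. At an unadjusted p below 0.05, 4 were lower and 1 was higher, and 6 of the 9 fold changes were below 0. Of 8 lists of cell type markers, that of choroid plexus epithelium had the largest median difference between the groups, with 9 of 10 higher in AllPrep, a summed 20.5 to 36.1 CPM in TRIzol and 639 to 1282 CPM in AllPrep. Ependymal markers had 3 of 6 higher, with 7.69 to 16.6 CPM in TRIzol and 24.6 to 33.8 CPM in AllPrep. Oligodendrocyte markers had none of 6 past the threshold by edgeR or DESeq2, 5 at an unadjusted p below 0.05, and all 6 fold changes below 0 (3020 to 5391 CPM in AllPrep, 5566 to 6569 CPM in TRIzol). No marker on the choroid plexus, ependymal or oligodendrocyte lists was at 0 in all libraries. These markers separated the same 6 libraries as the host genes, and their part in the differences of the host genes was not tested. In bulk tissue, fewer cells of a type and less RNA per cell cannot be told apart.

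Among the 21 host genes with enough counts to test, 2 were lower in AllPrep past the threshold, the snoRNA host Snhg11 and the microRNA host Mir124a-1hg, none was higher, and 19 did not pass. At an unadjusted p below 0.05, 14 of the 21 were lower and none was higher, where 12.4% of all genes were lower. Of all genes tested, 1.28% were called lower, 2.52% higher and 3.8% in either direction. By DESeq2, 8 of the 21 were lower (Snhg11, Mir124a-1hg, Gas5, Snhg17, Snhg8, Snhg5, Snhg4 and Mir99ahg), where that tool called 5.23% of all genes lower. Without TRIzol replicate 2 no host passed by edgeR, in a fit that called 2 genes in all. The log2 fold change of AllPrep relative to TRIzol was below 0 for 20 of the 21 hosts, against 51.5% of all genes. For 13 of the 21, every AllPrep library lay below every TRIzol library, which was so for 17.1% of all genes. No host had every AllPrep library above every TRIzol library, against 16% of all genes, and 8 hosts overlapped. The median log2 fold change was −0.44 over the 21 hosts and −0.011 over all genes. Both untested hosts, Mir155hg and Mir223hg, carry microRNAs best known from immune and myeloid cells and had at most 5 counts in any library.

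**Figure D1:**
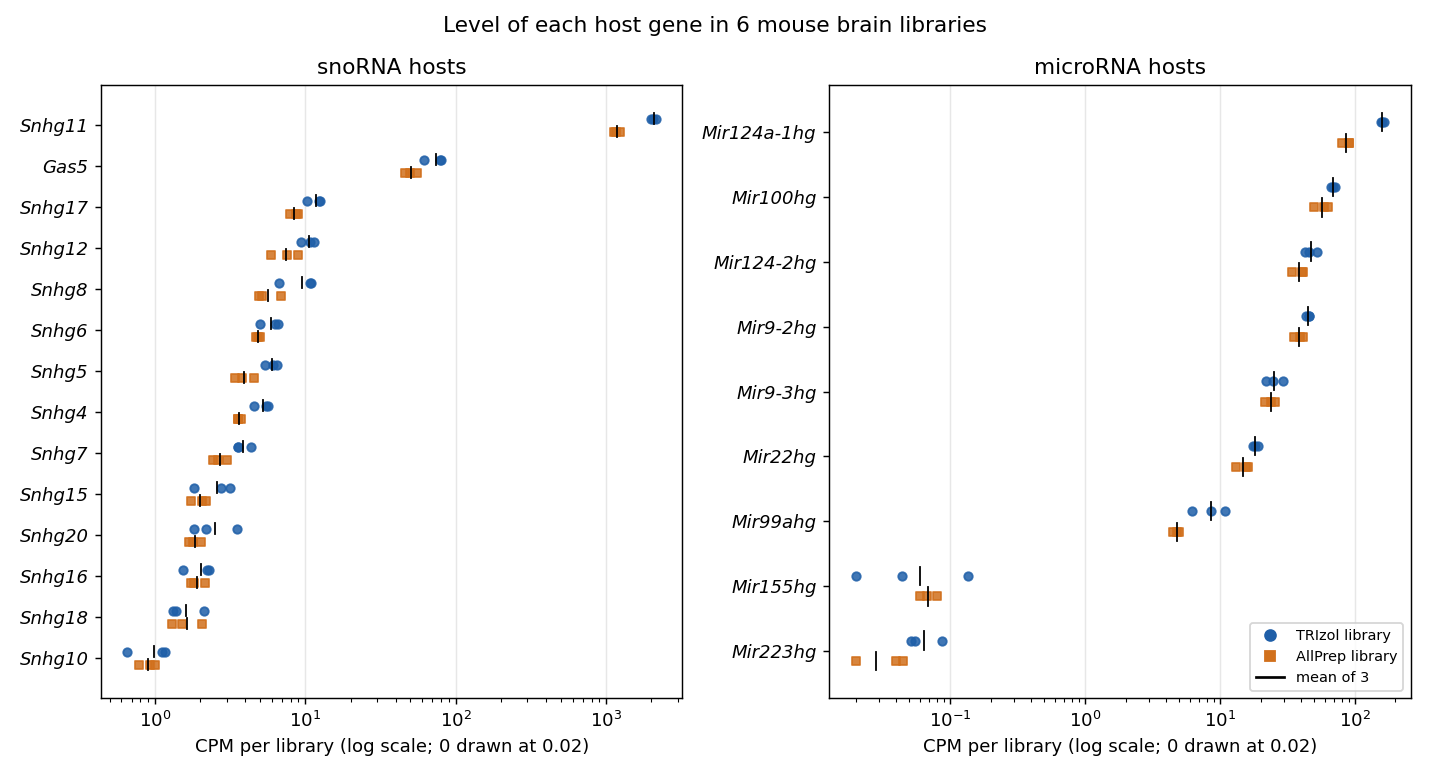
Level of each of the 23 host genes in the 6 libraries, in CPM on a log axis (a level of 0 is drawn at 0.02), with snoRNA hosts on the left and microRNA hosts on the right. Circles are TRIzol libraries, squares are AllPrep libraries and the bar is the mean of 3. Snhg11 stood at 1999 to 2144 CPM in TRIzol and 1125 to 1240 CPM in AllPrep, far above every other snoRNA host, and in Snhg18 the 2 groups lay over each other.

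Snhg11 (ENSMUSG00000044349), a host of H/ACA snoRNAs that is known for neuronal expression, was the most abundant host and the snoRNA host with the most negative fold change. Its level was 2144, 2065 and 1999 CPM in the TRIzol libraries and 1240, 1125 and 1161 CPM in the AllPrep libraries. The groups did not overlap, and the spread within each was small beside the gap between them (2069 ± 72.7 and 1175 ± 59.1 CPM, mean ± SD, n = 3 each). Snhg11 was 1.76-fold higher in TRIzol, a log2 fold change of −0.82 with an SE of 0.08 (edgeR adjusted p = 0.0124). It no longer passed without TRIzol replicate 2 (log2 fold change −0.82, adjusted p = 0.0535), AllPrep replicate 1 (−0.85, adjusted p = 0.0590) or AllPrep replicate 2 (−0.78, adjusted p = 0.0542). GENCODE lists the gene as protein coding and RefSeq as a long non-coding RNA.

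Gas5 (ENSMUSG00000053332), named for its accumulation in growth-arrested cells, was the second snoRNA host by level. Its level was 80.3, 78.8 and 61.7 CPM in TRIzol and 46.0, 49.5 and 55.0 CPM in AllPrep. Every AllPrep library was below every TRIzol library, with TRIzol replicate 3 the lowest of its group. The log2 fold change of −0.55 (SE 0.12) had an edgeR adjusted p of 0.0507, just outside the threshold, and without TRIzol replicate 3 it passed (−0.66, adjusted p = 0.0466). Zbtb37, a protein-coding zinc finger gene annotated on the opposite strand over Gas5, was higher in AllPrep, at 16.2, 18.9 and 20.3 CPM in TRIzol and 29.4, 30.8 and 32.8 CPM in AllPrep (log2 fold change 0.75, edgeR adjusted p = 0.0250). Whether strand was used in counting is not given in the sources used here, so reads of such overlapping genes cannot be told apart.

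The next snoRNA hosts by CPM, not scaled to transcript length, were far lower. Snhg17, the neighbour of Snhg11, was at 10.3, 12.5 and 12.3 CPM in TRIzol and 8.89, 7.89 and 8.62 CPM in AllPrep. Snhg12, which carries both C/D and H/ACA snoRNAs, was at 10.8, 11.5 and 9.38 CPM in TRIzol and 5.95, 7.51 and 8.92 CPM in AllPrep. In both genes the groups did not overlap, but the gap in Snhg12 between the lowest TRIzol and the highest AllPrep library was narrow. The log2 fold changes were −0.47 for Snhg17 (edgeR adjusted p = 0.0647) and −0.50 for Snhg12 (edgeR adjusted p = 0.119).

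Snhg8, host of Snora24, had the second most negative fold change of the snoRNA hosts but a wide spread. It was at 10.8, 10.9 and 6.71 CPM in TRIzol and 4.91, 5.15 and 6.86 CPM in AllPrep. TRIzol replicate 3 lay inside the AllPrep range, so the groups overlapped through that library (log2 fold change −0.75, SE 0.22, edgeR adjusted p = 0.0958). Snhg5, host of Snord50a and Snord50b, was at 6.07, 5.39 and 6.44 CPM in TRIzol and 4.59, 3.40 and 3.78 CPM in AllPrep, with no overlap (log2 fold change −0.60, SE 0.16, edgeR adjusted p = 0.0725). Snhg6, host of Snord87, was at 6.32, 6.56 and 4.996 CPM in TRIzol and 4.73, 4.89 and 5.001 CPM in AllPrep. Its TRIzol replicate 3 and AllPrep replicate 3 were level with each other (log2 fold change −0.29, edgeR adjusted p = 0.261).

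Snhg4 and Snhg7 had no overlap between groups, with log2 fold changes of −0.53 and −0.50 (edgeR adjusted p = 0.0759 and 0.122). Snhg15 and Snhg20 had log2 fold changes of −0.36 and −0.44 with overlapping groups (edgeR adjusted p = 0.389 and 0.339). These values moved with single libraries: Snhg15 was at −0.18 without TRIzol replicate 1 and −0.56 without TRIzol replicate 3, and Snhg20 at −0.13 without TRIzol replicate 2. The remaining 3 snoRNA hosts lay nearest to 0. Snhg18, host of Snord123, was at 2.11, 1.38 and 1.32 CPM in TRIzol and 2.06, 1.30 and 1.52 CPM in AllPrep, the 1 host with a fold change above 0. Snhg16, host of the Snord1 family, was at 1.53, 2.30 and 2.24 CPM in TRIzol and 1.81, 1.75 and 2.16 CPM in AllPrep. Snhg10, host of Scarna13, was at 1.12, 1.17 and 0.657 CPM in TRIzol and 0.996, 0.929 and 0.780 CPM in AllPrep. In each of these 3 genes the groups overlapped, and no library had fewer than 30 counts. Their 95% intervals were wide: −0.59 to 0.65 for Snhg18, −0.57 to 0.44 for Snhg16 and −0.75 to 0.58 for Snhg10 on the log2 scale (limma-trend), so no difference was detected, and differences of the sizes within these intervals remain possible in either direction.

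**Figure D2:**
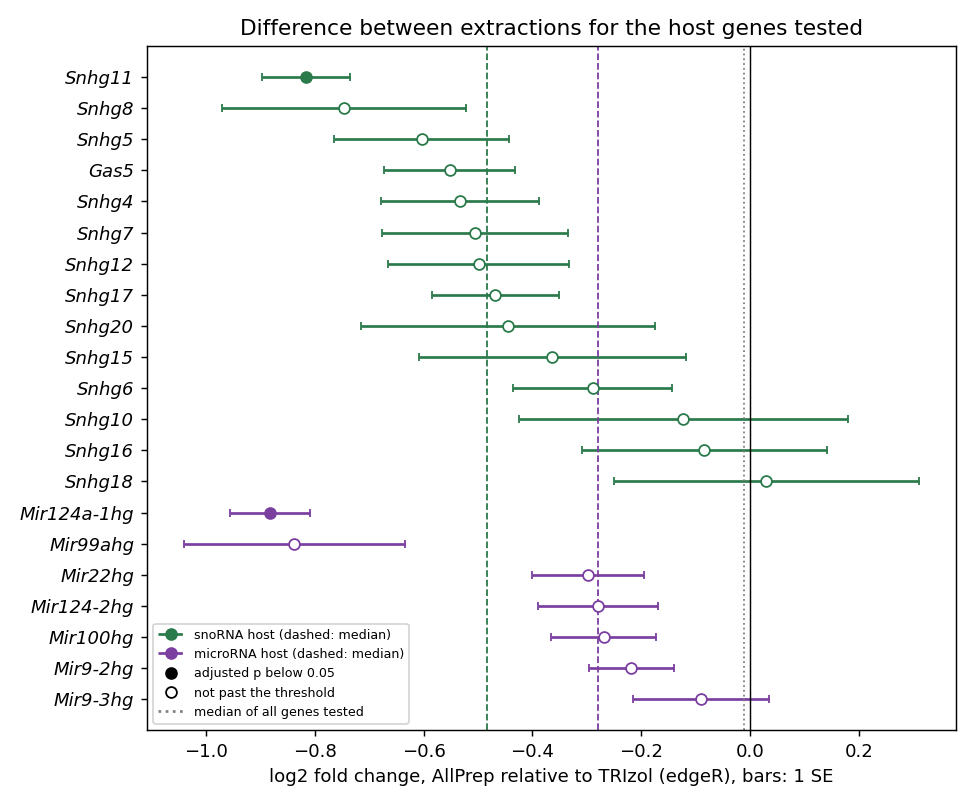
Log2 fold change of AllPrep relative to TRIzol for the 21 host genes tested, with bars of 1 SE from the edgeR fit. Filled points have an adjusted p below 0.05, dashed lines are the medians of the 14 snoRNA hosts (−0.48) and of the 7 tested microRNA hosts (−0.28), and the dotted line is the median of all genes tested (−0.011). Snhg11 and Mir124a-1hg are the filled points, and Snhg18 is the 1 host to the right of 0.

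Mir124a-1hg (ENSMUSG00000097545), on chromosome 14, was the most abundant microRNA host and the host with the most negative fold change of all 21. Its level was 158, 157 and 165 CPM in TRIzol and 89.7, 89.7 and 80.6 CPM in AllPrep. The libraries of a group lay close together and the groups were far apart (160 ± 4.28 and 86.7 ± 5.30 CPM, mean ± SD, n = 3 each). The gene was 1.84-fold higher in TRIzol, a log2 fold change of −0.88 with an SE of 0.07 (edgeR adjusted p = 0.0120). With 1 library left out it passed the threshold in 5 of 6 fits, and without TRIzol replicate 2 its log2 fold change was −0.90 (edgeR adjusted p = 0.0501).

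Mir124-2hg, on chromosome 3, carries a hairpin of the same microRNA and was at 45.5, 52.7 and 43.0 CPM in TRIzol and 41.5, 40.8 and 34.1 CPM in AllPrep. The groups did not overlap, but their nearest libraries were 43.0 and 41.5 CPM (log2 fold change −0.28, SE 0.11, edgeR adjusted p = 0.164). The hosts of miR-9 come next. Mir9-2hg was at 45.9, 43.6 and 45.4 CPM in TRIzol and 35.6, 41.3 and 39.1 CPM in AllPrep, without overlap (log2 fold change −0.22, edgeR adjusted p = 0.140). Mir9-3hg was at 29.3, 21.9 and 24.6 CPM in TRIzol and 21.6, 25.7 and 23.8 CPM in AllPrep, with overlap (log2 fold change −0.09, edgeR adjusted p = 0.687). Its 95% interval of −0.37 to 0.21 (limma-trend) included 0.

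Mir100hg was at 70.8, 69.0 and 66.5 CPM in TRIzol and 62.9, 49.5 and 58.7 CPM in AllPrep (log2 fold change −0.27, edgeR adjusted p = 0.138). Mir99ahg, its sister cluster on chromosome 16, was at 10.8, 6.203 and 8.57 CPM in TRIzol and 4.82, 4.49 and 5.001 CPM in AllPrep. In both hosts every AllPrep library was below every TRIzol library, and in Mir99ahg the TRIzol libraries were spread widely (log2 fold change −0.84, SE 0.20, edgeR adjusted p = 0.0623). Mir22hg, whose microRNA miR-22 is made in many tissues, was at 19.04, 18.1 and 17.7 CPM in TRIzol and 13.1, 15.5 and 16.02 CPM in AllPrep, without overlap (log2 fold change −0.30, SE 0.10, edgeR adjusted p = 0.127). Counting by class, groups without overlap occurred in 7 of 14 snoRNA hosts and in 6 of 7 tested microRNA hosts, always with AllPrep lower, against 17.1% of all genes. The median log2 fold change was −0.48 for snoRNA hosts (range −0.82 to 0.03) and −0.28 for tested microRNA hosts (range −0.88 to −0.09). For each library, the median over a class was taken of every gene's log2 deviation from its mean over the 6 libraries. The pooled SD of that value within an extraction was 0.13 for snoRNA hosts and 0.068 for tested microRNA hosts. It describes the spread of libraries and is not an error of the median fold changes. The classes were not tested against each other.

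Levels between genes can be compared only per length. Per kilobase of the longest annotated transcript, averaged over the 6 libraries, Snhg11 had 277 CPM, Mir124a-1hg 30.03 CPM and Gas5 24.2 CPM. Mir100hg followed at 14.8, Mir9-2hg at 11.7 and Mir124-2hg at 11.2 CPM per kilobase. Snhg8 stood at 9.75 CPM per kilobase, close to Mir22hg at 9.46, although its unscaled level was lower. At the low end were Snhg20 at 1.01 and Snhg16 at 0.988 CPM per kilobase among the snoRNA hosts, and Mir99ahg at 1.94 CPM per kilobase among the tested microRNA hosts.

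Each class had a leading gene. Summed, the snoRNA hosts had 2298, 2249 and 2147 CPM in TRIzol and 1337, 1189 and 1240 CPM in AllPrep, here on the deposited library totals without TMM, and Snhg11 alone made up 91.9% to 94.4% of that sum. The AllPrep libraries were all lower, at 1255 ± 75.2 against 2231 ± 77.1 CPM (mean ± SD, n = 3 each), and TRIzol was 1.78-fold higher. Without Snhg11 the other snoRNA hosts summed to 138 ± 15.9 CPM in TRIzol and 93.9 ± 6.13 in AllPrep, a 1.47-fold difference. The microRNA hosts had 381, 374 and 376 CPM in TRIzol and 271, 261 and 253 in AllPrep (1.44-fold). Mir124a-1hg held 41.7%, 42.5% and 44.4% of those counts in TRIzol and 33.3%, 33.6% and 31.3% in AllPrep, so its share of the class was lower in every AllPrep library. The other microRNA hosts summed to 215.5 ± 6.89 CPM in TRIzol and 176 ± 4.07 in AllPrep (1.23-fold).

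A ratio of counts within a library compares related hosts without any scaling between libraries. For 4 pairs of related hosts the ratio was compared between extractions by a 2-sided exact permutation test, whose smallest possible p with 3 against 3 libraries is 0.1. Mir124a-1hg over Mir124-2hg was 3.47, 2.97 and 3.83 in TRIzol and 2.16, 2.20 and 2.36 in AllPrep. The groups did not overlap (exact permutation p = 0.1, adjusted over the 4 pairs 0.2), and the ratio was lower in every AllPrep library than in any TRIzol library. Snhg11 over Snhg17 was 207, 165 and 163 in TRIzol and 139, 143 and 135 in AllPrep, also without overlap (exact permutation p = 0.1, adjusted 0.2).

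The ratios of the other pairs overlapped. Mir9-2hg over Mir9-3hg was 1.57, 1.99 and 1.84 in TRIzol and 1.64, 1.61 and 1.64 in AllPrep (exact permutation p = 0.4, adjusted 0.4). Mir99ahg over Mir100hg was 0.153, 0.0900 and 0.129 in TRIzol and 0.0766, 0.0907 and 0.0852 in AllPrep (exact permutation p = 0.2, adjusted 0.267). In the last pair TRIzol replicate 2 fell among the AllPrep libraries.

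**Figure D3:**
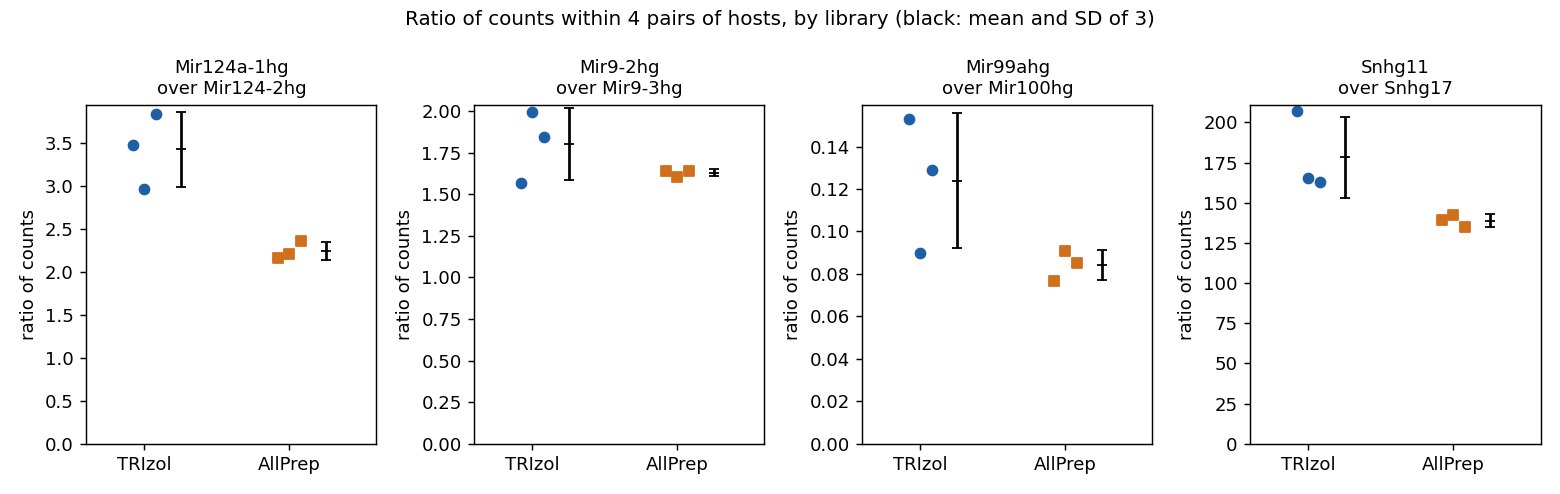
Ratio of counts within each library for 4 pairs of related hosts, each on its own linear axis from 0. Circles are TRIzol libraries, squares are AllPrep libraries, and black marks give the mean and SD of 3. In the miR-124 pair the TRIzol ratios (2.97 to 3.83) all lie above the AllPrep ratios (2.16 to 2.36), while in the miR-9 pair the AllPrep ratios lie within the TRIzol range.

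A few of the small RNAs carried by these hosts had rows of their own. Gm25129, a snoRNA in an intron of Snhg11, had 82, 122 and 123 counts in TRIzol and 78, 36 and 98 counts in AllPrep. Scaled for library size these were 2.24, 3.11 and 2.695 CPM in TRIzol and 1.77, 0.956 and 1.96 CPM in AllPrep, so every AllPrep library was below every TRIzol library (log2 fold change −0.77, edgeR adjusted p = 0.152). The hairpin Mir99a, in an intron of Mir99ahg, had 10, 2 and 8 counts in TRIzol and 1, 0 and 0 counts in AllPrep. Mirlet7a-2 and Mirlet7c-1, hairpins in introns of Mir100hg and Mir99ahg, had at most 2 counts in any library. Reads of 150 bases are longer than these hairpins, and reads of unspliced host RNA cannot be told apart from reads of the small RNA. In the annotation, Mir124a-1, Mir9-2 and Mir22 lie in an exon of at least 1 transcript of their host, whereas Mir9-3 and the hairpins of Mir100hg and Mir99ahg lie in introns. The exonic group includes the called host Mir124a-1hg and also Mir9-2hg and Mir22hg, which did not pass. The snoRNAs of Gas5, Snhg17, Snhg12, Snhg8, Snhg5 and Snhg16 likewise lie in an exon of at least 1 host transcript. So does Gm25187 of the called host Snhg11, and Mir124a-2 of Mir124-2hg lies partly in an exon. Snord87 of Snhg6 and Snord123 of Snhg18 lie in introns. Reads of a small RNA inside such an exon cannot be told apart from reads of the host.

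Transcripts of many snoRNA hosts begin with a 5′ terminal oligopyrimidine tract, a feature they share with ribosomal protein mRNAs, which couples translation to growth signals. The RefSeq promoter windows (GRCm38.p6) were searched on the transcribed strand for a C followed by 4 bases that are each C or T, starting within 5 bases of the annotated start. It was present in 6 of 12 snoRNA hosts with a window (50%), in 1 of 5 microRNA hosts (20%), and in 5328 of 27025 genes (19.7%). Windows of 50 bases around the start are printed for 3 of the snoRNA hosts with the run. The pyrimidine run is in capitals.
Gas5, chr1:161035146-161035195, + strand: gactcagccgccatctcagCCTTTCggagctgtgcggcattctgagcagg
Snhg8, chr3:123508307-123508356, − strand: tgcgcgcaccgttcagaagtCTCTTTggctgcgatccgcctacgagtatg
Snhg12, chr4:132308658-132308707, + strand: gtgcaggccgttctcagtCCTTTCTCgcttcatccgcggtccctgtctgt
Gas5 has a second annotated start without the run. Snhg7, Snhg10 and Snhg18 also held the run, but in Snhg10 it starts at −5 and ends before the annotated start. The log2 fold changes of the snoRNA hosts with it were −0.75 (Snhg8), −0.55 (Gas5), −0.50 (Snhg7), −0.50 (Snhg12), −0.12 (Snhg10) and 0.03 (Snhg18). The microRNA host with it was Mir99ahg (−0.84). No such run began within 5 bases of the start in Snhg11 (−0.82), Snhg5 (−0.60), Snhg17 (−0.47), Snhg20 (−0.44), Snhg15 (−0.36) and Snhg16 (−0.08). Whether the run goes with the fold change was not tested. In Snhg5 and Snhg16 a run of this kind lies further downstream, so its absence here depends on the 5-base limit and the annotated start.

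The proteins that bind and process snoRNAs were read from the same fit. Of the 4 core proteins of box C/D particles, Nop56 was lower in AllPrep, at 89.0, 89.9 and 89.6 CPM in TRIzol and 71.4, 64.6 and 67.2 CPM in AllPrep (log2 fold change −0.40, SE 0.07, edgeR adjusted p = 0.0321). The other 3 did not pass, among them Fbl, the methyltransferase (log2 fold change −0.22, edgeR adjusted p = 0.165), and Snu13, which binds the snoRNA's kink-turn (−0.07, edgeR adjusted p = 0.562). The median of these 4 was −0.15. None of the 4 core proteins of H/ACA particles passed by edgeR or DESeq2, and none had an unadjusted p below 0.05. Their median was −0.051, or 0.020 with length and GC trends removed, and they include Dkc1, the pseudouridine synthase (0.10), Nop10 (−0.10) and Nhp2 (−0.24). None of 10 assembly factors passed by either tool, and 2 had an unadjusted p below 0.05 (median −0.052), with Naf1 at 0.31, Znhit3 at −0.28, Nolc1 at 0.02 and Ruvbl1 at −0.12.

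Many vertebrate snoRNAs outside the Snhg genes lie in introns of protein-coding genes, among them genes for ribosomal proteins and translation factors. Of 31 such protein-coding snoRNA hosts none passed the threshold by edgeR. An unadjusted p below 0.05 was found for 19, all lower, where 12.4% of all genes were lower. By DESeq2 9 of the 31 were lower, against 5.23% of all genes. Of the 31, 29 had a log2 fold change below 0, against 51.5% of all genes, and the median of the 31 was −0.29. Every AllPrep library was below every TRIzol library in 22 of the 31, against 17.1% of all genes. Most of the 31 are ribosomal protein genes, whose log2 fold changes ran from −0.43 (Rpl30) to 0.02 (Rps2). The others ran from −0.37 (Tpt1) to 0.04 (Eif4g2). Whether the lower values go with hosting snoRNAs or with being a ribosomal protein gene was not tested. Rpl4, of the large ribosomal subunit, had a log2 fold change of −0.31 (SE 0.08, edgeR adjusted p = 0.0635) and Rpl5 had −0.32 (SE 0.09, edgeR adjusted p = 0.0779). The most abundant were Hspa8, a constitutive chaperone, at −0.23, and Eef2, the translocation factor, at −0.17.

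Among 9 tested genes on a list of other non-coding hosts of small RNAs, Meg3 and Mirg were lower in AllPrep by edgeR and 7 did not pass (median −0.61, 8 of 9 below 0). DESeq2 called 5 of the 9 lower, against 5.23% of all genes. Meg3, a maternally expressed transcript of the imprinted Dlk1-Dio3 region, was at 3586, 4076 and 4123 CPM in TRIzol and 2664, 2288 and 2743 CPM in AllPrep (log2 fold change −0.61, SE 0.11, edgeR adjusted p = 0.0331). Mirg, host of a microRNA cluster in the same region, was at 31.7, 29.7 and 30.4 CPM in TRIzol and 19.01, 15.5 and 14.6 CPM in AllPrep (log2 fold change −0.90, SE 0.11, edgeR adjusted p = 0.0202). In both genes the groups did not overlap. Ftx, a microRNA host near Xist, had −0.54 (edgeR adjusted p = 0.0755).

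Of 17 microRNA processing and effector genes, 2 were higher in AllPrep by edgeR, none was lower and 15 did not pass (median −0.061). DESeq2 called 2 of the 17 higher and 1 lower, where it called 1275 higher and 820 lower of 15683 genes. Ago2, the slicing Argonaute, was at 94.7, 96.7 and 102 CPM in TRIzol and 174, 151 and 188 CPM in AllPrep (log2 fold change 0.81, SE 0.09, edgeR adjusted p = 0.0184). Tnrc6b, a GW182 scaffold that Argonaute recruits to silence mRNAs, was at 94.7, 87.5 and 102 CPM in TRIzol and 151, 146 and 172 CPM in AllPrep (log2 fold change 0.72, SE 0.09, edgeR adjusted p = 0.0203). In both genes the AllPrep libraries were all above the TRIzol libraries. With length and GC trends removed, the log2 fold changes were 0.37 for Ago2 (adjusted p = 0.0456) and 0.25 for Tnrc6b (adjusted p = 0.0925). At an unadjusted p below 0.05, 5 of the 17 were higher and 1 was lower. Of all genes 12.4% were lower at that level, and the share that was higher is not given here. The abundant helicases of the Drosha complex, Ddx5 and Ddx17, had −0.06 and −0.11, and Drosha and Dicer1 had 0.11 and 0.09.

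Of 15 nonsense-mediated decay factors, Smg6, the endonuclease of the pathway, was higher in AllPrep by edgeR, and 14 did not pass (median −0.085). By DESeq2, 2 of the 15 were higher and 1 was lower, where 1275 of 15683 genes were higher and 820 lower. Smg6 was at 44.7, 47.1 and 48.3 CPM in TRIzol and 58.3, 56.7 and 59.8 CPM in AllPrep (log2 fold change 0.32, SE 0.07, edgeR adjusted p = 0.0456). It did not pass with library size alone or with length and GC trends removed. Upf3b had a log2 fold change of −0.33 (edgeR adjusted p = 0.0655) and Smg1, the kinase, 0.32 (edgeR adjusted p = 0.0770). The medians of the H/ACA core, assembly, microRNA processing and decay lists lay between −0.085 and −0.051, that of the box C/D core list was −0.15, and those of the 4 groups of host genes, long non-coding and protein-coding, between −0.61 and −0.28. With length and GC trends removed, the medians were 0.020 (H/ACA core), −0.056 (assembly), −0.12 (decay), −0.13 (microRNA processing) and −0.19 (box C/D core). Those of the host groups were −0.25 (protein-coding snoRNA hosts), −0.26 (microRNA hosts), −0.45 (snoRNA hosts) and −0.64 (other non-coding hosts). The box C/D core and protein-coding host lists then lay closer together. All of these are descriptions of the lists, which were not tested against each other.

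**Figure D4:**
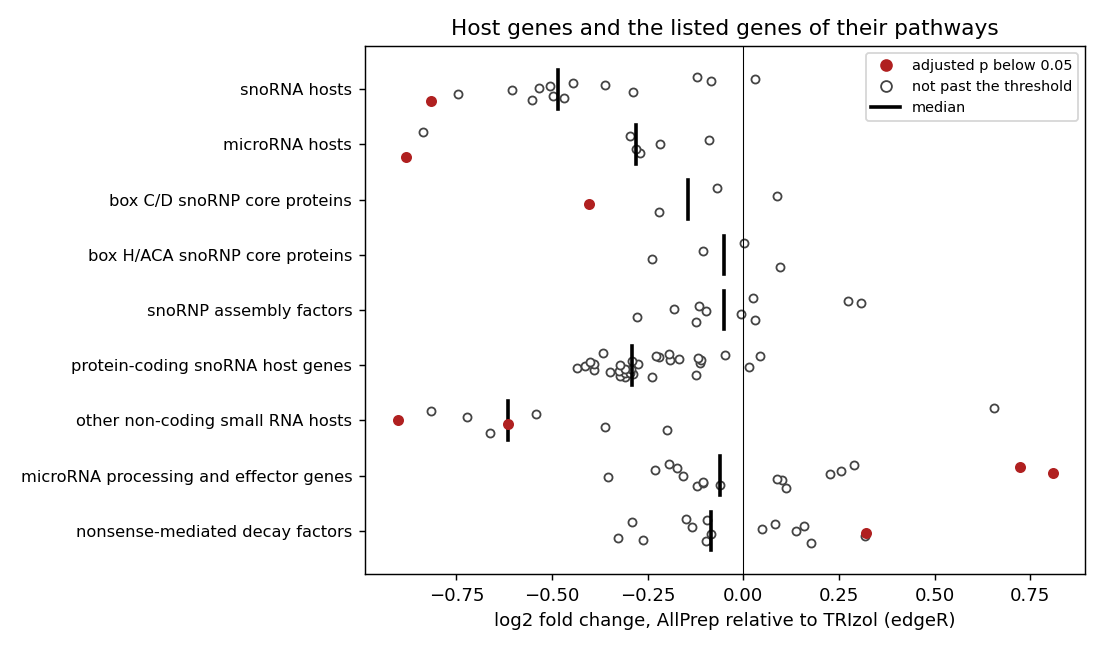
Log2 fold change of AllPrep relative to TRIzol for each tested gene of the snoRNA hosts, the microRNA hosts and 7 lists of related genes, 1 point per gene, with the median of each list as a bar. Filled points have an edgeR adjusted p below 0.05. The host lists lie mostly left of 0, with medians of −0.48 for snoRNA hosts, −0.29 for protein-coding snoRNA hosts and −0.61 for other non-coding hosts, and the filled points right of 0 are Ago2, Tnrc6b and Smg6.

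Besides Zbtb37, 3 protein-coding genes annotated over or beside a host had values. Mcmdc2, opposite Snhg6, had a log2 fold change of −0.64 (edgeR adjusted p = 0.111), and St6galnac2, opposite Snhg16, had 0.44 (edgeR adjusted p = 0.156). Tlcd2, on the same strand as Mir22hg, had 0.19 (edgeR adjusted p = 0.795) at 0.164 to 0.306 CPM. The part of such overlaps in the values of Snhg6, Snhg16 and Mir22hg was not tested.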

How the data were processed

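RNA of 6 mouse brain libraries was measured by sequencing, 3 per extraction. The submitters' processing notes name FastQC 0.11.9, cutadapt, STAR 2.7.9a, featureCounts, limma 3.60.6 and the genome build GRCm39, with no settings. The authors deposited 1 table of whole-number counts per gene, without normalization, per the file headers. Identical repeat rows (108) of 94 gene identifiers were dropped.

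The members and gene lists described here were chosen with earlier results of these data known. Genes with low counts were removed by filterByExpr, leaving 16325, and libraries were scaled by TMM. AllPrep was compared with TRIzol by edgeR 4.0.16 (quasi-likelihood F-test, two-sided, R 4.3.3) with Benjamini-Hochberg adjustment over all genes tested and a threshold of 0.05, a fit also tested on simulated data. SEs are the log2 fold change over the root of F, and 95% intervals come from limma-trend 3.58.1 with a prior count of 2. CPM uses TMM library sizes. Values in each library are given for hosts past the threshold, the 6 most abundant of each class and the 3 with the most extreme fold changes in each direction. In each list of pathway genes or other hosts, the text names genes past the threshold, the 2 lowest p and the 2 highest levels; 1 gene that fits this rule is not reported here. The alternatives tried were scaling by library size or by DESeq2's factors, the tests of DESeq2 1.42.0 and limma-trend, other filters, halved counts, length and GC trends removed with mgcv 1.9.3 (99.35% of genes had both), a replicate block and each library left out. All replicates differed by more than sampling noise. Replicate numbers have no stated meaning. Sequences came from GENCODE vM21 and RefSeq on GRCm38, and are not placed on the submitters' build.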

Additional observations from a re-analysis of the deposited data

How the results depend on the processing

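Of 315 values of single hosts under the alternatives, 293 kept their direction and side of the threshold, 11 newly passed it, 4 no longer passed and 7 turned direction; the cause was not tested. Genes called numbered 621, and 2095 with DESeq2's test, 401 with length and GC trends removed, 236 with the replicate number as a block and 2 to 205 with a library left out, fits with fewer samples. Hosts called numbered 2, and 8 with DESeq2, 0 to 3 with a library left out and 2 with the block. Same-numbered libraries correlated at −0.048, 0.006 and 0.16 in their deviations from the group means, so the numbers were not taken to pair the libraries. Gas5 was also called with library size alone, no filter, at least 1 CPM in 3 libraries, and halved counts. With library size alone Snhg18 was at −0.00057 (adjusted p = 0.999), and the median of all genes at −0.045, against −0.048 with length and GC trends removed. With a library left out, Snhg18 ranged from −0.17 to 0.27, Mir9-3hg from −0.19 to 0.029, Snhg16 from −0.25 to 0.011 and Snhg10 from −0.35 to 0.024. The class medians ranged from −0.55 to −0.41 (snoRNA hosts) and −0.33 to −0.27 (microRNA hosts). Depth limits Snhg10, Snhg18, Mir155hg and Mir223hg, with 46, 91, 5 and 4 counts at most in any library.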
